A study of Arabidopsis thaliana with 84 samples.

Results

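This account concerns 4 Arabidopsis genes that handle methionine and the methyl donor made from it, S-adenosylmethionine (SAM), and follows their transcript levels through root cell types and nitrogen treatments. The genes are BCAT4 (AT3G19710), MSRB5 (AT4G04830), SAMDC (AT3G02470) and PMEAMT (AT1G48600). Each has 1 probe set among the 22810 on the Affymetrix ATH1 array, and they are 4 of the 13350 genes to which the platform annotation ties a probe set of their own. The genes were chosen on their log2 levels over all 28 groups of these samples, so their values are given as a description, with standard errors and no p-values.

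Methionine in plants is used for protein, for SAM and, in Arabidopsis and its relatives, for the defence compounds called aliphatic glucosinolates. BCAT4 is the aminotransferase that starts the lengthening of the methionine side chain on the way to those glucosinolates. SAM donates methyl groups, as in the methylation that PMEAMT carries out on the way to phosphocholine, a head group of membrane lipids. SAMDC decarboxylates SAM to give the aminopropyl donor of spermidine and spermine. MSRB5 belongs to the methionine sulfoxide reductases of type B, which turn oxidised methionine back into methionine, and its locus lies beside those of MSRB4 and MSRB6 on chromosome 4. How far its probes tell these related copies apart was not tested.

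The study asked how the response to nitrate differs between root cell types. Plants in the Col-0 background were grown for 12 days in hydroponic medium whose only nitrogen was 0.5 mM ammonium succinate, and were then moved to nitrate (KNO3, 5 mM) or to a control salt (KCl, 5 mM). The treatment lasted 2 h, or 3.5 h in a pair of root groups. Every group had 3 arrays, labelled as biological replicates, and each of the 28 groups is one combination of sample and treatment.

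After enzymes had digested the walls, single cells were separated by fluorescence into 5 populations. EpiC stands for the epidermis with the cortex, EndoP for the endodermis with the pericycle, Peri for pericycle alone, Stele for the central cylinder and LRC for the cap at the sides of the root tip. Each population had continuous nitrate, where nitrate stayed in the digestion solution, transitory nitrate, where it did not, and KCl. Peri cells also had nitrate with methionine sulfoximine (MSX, 1 mM) and 5 mM glutamine, nitrate with MSX, and KCl with MSX. MSX inhibits glutamine synthetase and so blocks the assimilation of ammonium, including that made from nitrate. Unsorted protoplasts and roots incubated in the same solution without enzymes had the same 3 treatments of continuous nitrate, transitory nitrate and KCl, and roots frozen straight after treatment had nitrate and KCl. The labels do not name the marker that drives fluorescence in each sorted line. Sample numbers fall in an earlier and a later run. The later run holds Peri cells with nitrate, MSX and glutamine, protoplasts in transitory nitrate and the roots frozen at 3.5 h. What this numbering reflects is not given, and between groups of different runs it cannot be told apart from treatment, wall digestion or time. Labelling used 50 ng of RNA and 2 cycles of amplification for sorted cells (two-cycle), but 1 ug and a single cycle for everything else (one-cycle), so levels are compared only within the 54 sorted arrays or within the 30 others.

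All values are log2 signals per probe set. Sorted arrays were quantile normalized and the others used as deposited. A level belongs to 1 probe set, so levels of different genes are not ranked against each other. In bulk RNA of this kind, fewer cells of a type and less RNA per cell cannot be told apart.

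Some arrays stood apart from their companions before any gene was considered. One sorted array, EndoP in transitory nitrate replicate 1, had a median Pearson correlation of 0.572 with the other EndoP arrays, against 0.667 to 0.963 for the remaining sorted arrays within their populations. Among the one-cycle arrays, 4 fell below 0.7. They were replicate 1 of 2 h roots in KCl (0.364), replicate 1 (0.327) and replicate 2 (0.559) of incubated roots in KCl, and replicate 2 of incubated roots in continuous nitrate (0.283), and the others lay between 0.738 and 0.927. By Spearman correlation, incubated roots in continuous nitrate replicate 1 also fell below that limit, at 0.67. The differences below that these 6 arrays move most are given with and without them. Of 18 marker genes of root cell types and green tissue, 8 could be named. The root cap gene RCPG was highest in LRC, at a mean of 8.02, and lay between 5.41 and 6.14 in the other populations in KCl. The root hair gene EXPA7 went against the EpiC label, with 6.56 in EpiC cells, against 9.29 in EndoP and 9.27 in Stele. The photosynthesis genes RCA and LHCB4.2 were higher in EpiC than in the mean of the other populations, with limma adjusted p-values of 2.61e-05 and 1.25e-04. Their part in the EpiC values below was not tested. The cortex gene CO2 was highest in LRC, at 6.58, against 5.85 in EpiC (limma adjusted p = 0.0277 for LRC). The endodermis gene GSO1 had its highest mean in Peri, at 8.84, and 8.45 in EndoP (limma adjusted p = 0.237 for EndoP). The stele gene LHW was 10.24 in Stele and 10.39 in EpiC (limma adjusted p = 0.813 for Stele). The cortex gene JKD was highest in EpiC, at 7.50, with no call there. No marker of the pericycle could be named, so the Peri label was not checked.

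BCAT4 was highest in pericycle cells. In KCl its level was 10.02, 9.21 and 9.89 on the 3 Peri arrays. EndoP arrays followed with 7.79, 7.89 and 8.04, and EpiC arrays had 7.01, 5.94 and 7.16. LRC arrays had 6.46, 6.40 and 6.21, and Stele arrays had 6.26, 5.70 and 5.84. All Peri arrays lay above all EndoP arrays, and all EndoP arrays above all EpiC arrays, while EpiC overlapped LRC and LRC overlapped Stele. On its own array, the BCAT4 probe set stood at the 90.8th to 95.9th percentile in Peri cells and at the 18.7th to 33.5th in Stele cells, so the lower end of this range is near the floor of the array.

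The mean of BCAT4 was 9.71 ± 0.43 in Peri cells in KCl (SD, n = 3). It exceeded the mean of the other 4 populations by 2.98 log2 units (SE 0.38). That mean holds LRC and Stele arrays that all lie below the 40th percentile of their array, so no fold is given. The same difference was 0.73 for EndoP and negative elsewhere, at -0.77 for EpiC, -1.21 for LRC and -1.73 for Stele (SE 0.38 each).

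**Figure D1:**
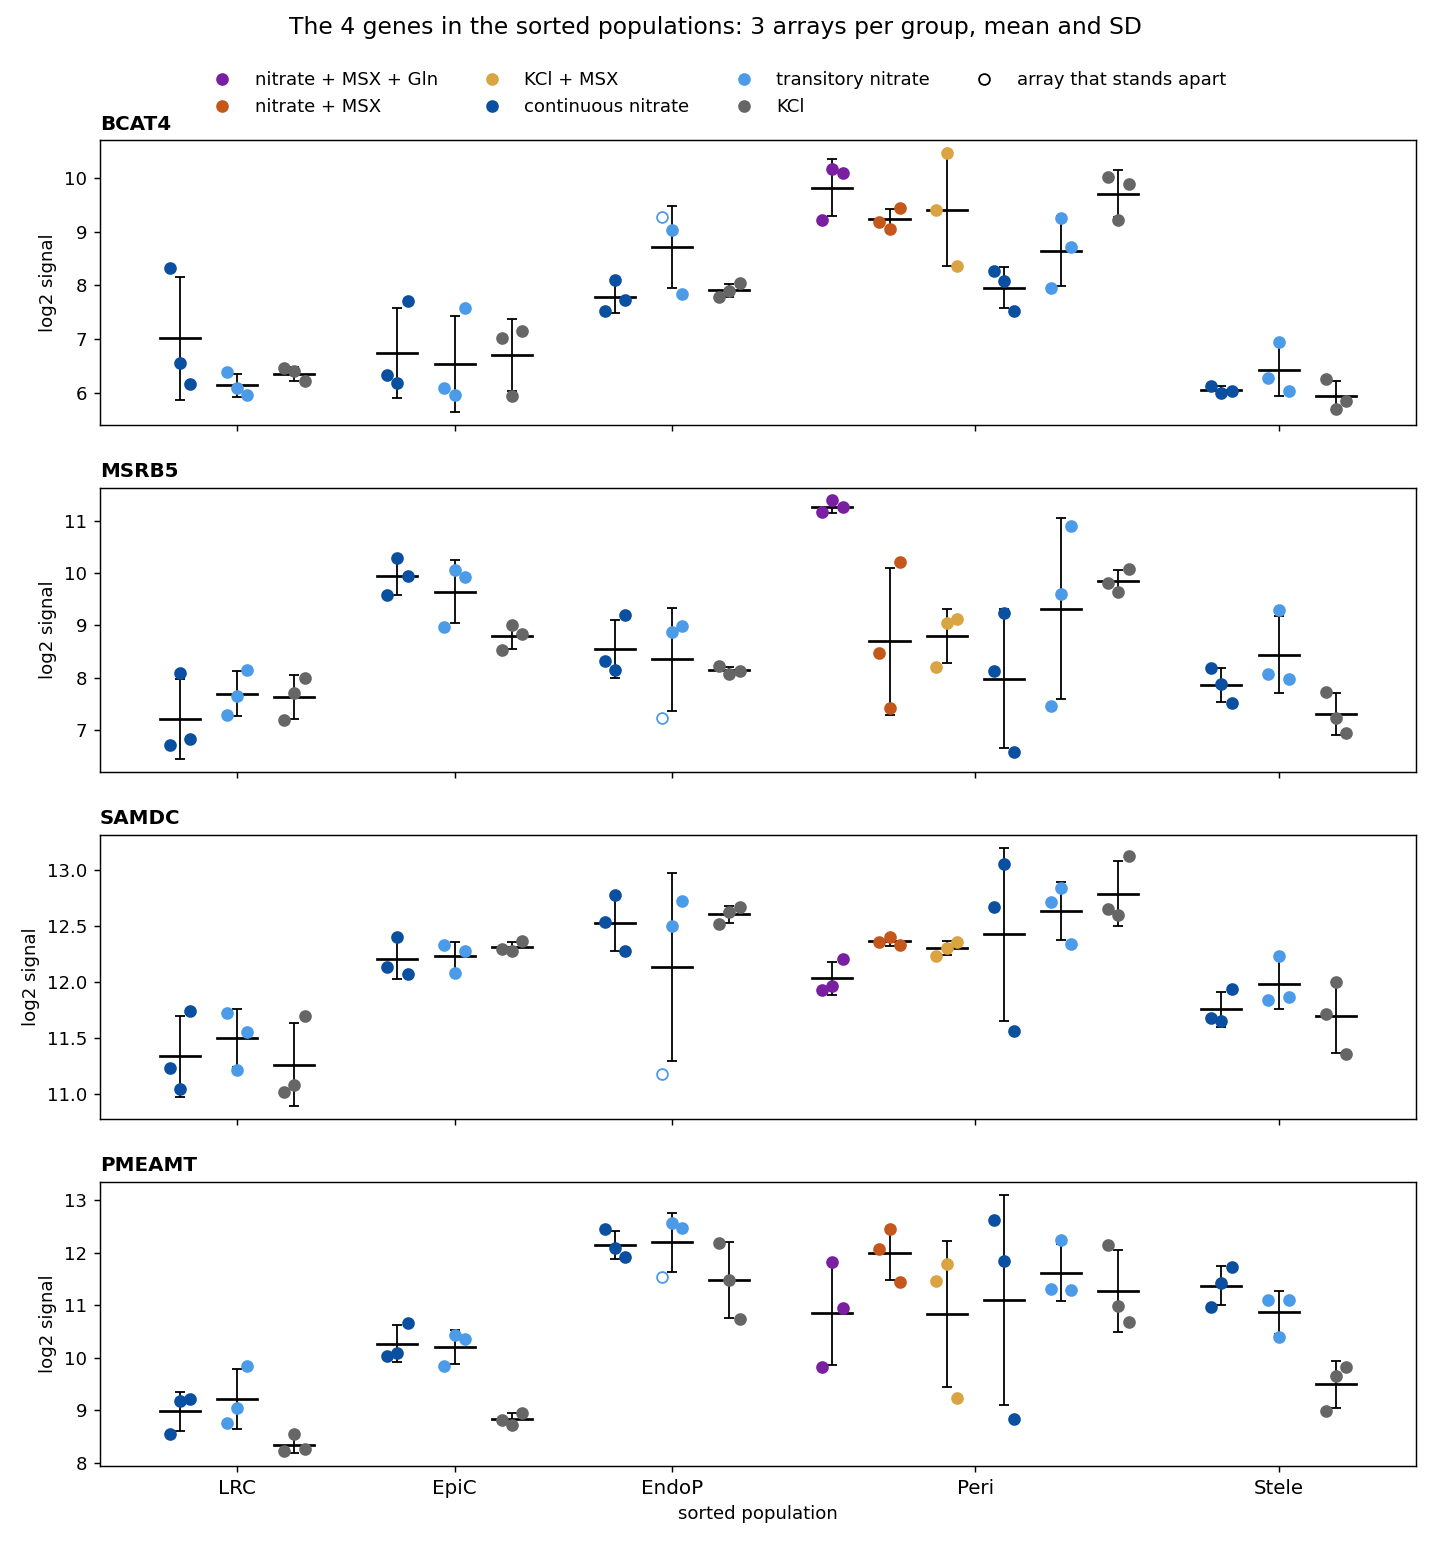
Log2 signal of the 4 genes on each of the 54 sorted arrays, in 4 panels, with population on the horizontal axis and treatment by colour; bars give the mean and SD of 3 arrays and the hollow point is the EndoP array that stands apart. BCAT4 is highest in Peri, MSRB5 reaches its top on the 3 arrays of Peri cells given nitrate, MSX and glutamine, and PMEAMT is higher in nitrate than in KCl in LRC, EpiC and Stele with no overlap.

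Within the pericycle, BCAT4 was lower in nitrate than in KCl. It had 8.26, 8.08 and 7.53 in continuous nitrate and 7.96, 9.25 and 8.71 in transitory nitrate, against 10.02, 9.21 and 9.89 in KCl. The 3 continuous-nitrate arrays lay below every KCl array, and of the transitory ones only the array at 9.25 passed the lowest KCl array. The difference from KCl was -1.75 for continuous nitrate (0.297-fold) and -1.07 for transitory nitrate (SE 0.48 each), and -1.41 for both nitrate groups together (SE 0.41). In the other populations the mean of both nitrate groups differed from KCl by -0.06 (EpiC), 0.22 (LRC), 0.30 (Stele) and 0.34 (EndoP), each smaller than its SE of 0.41.

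The size of the pericycle difference depends on the scaling of the arrays. The 6 Peri nitrate arrays had deposited medians of 6.73 to 7.47, all above the 6.49 to 6.62 of the 3 Peri KCl arrays, and mean signals of 177 to 372, against 173 to 177. On the deposited values, without quantile normalization, BCAT4 differed by -0.70 in place of -1.41, and the continuous-nitrate arrays (9.17, 9.24 and 7.51) overlapped the KCl arrays (9.90, 8.95 and 9.70). The median of all probe sets tested was 0.40 on deposited values and -0.14 with normalization. Relative to those medians, BCAT4 was lower by a like amount on both scales, at -1.27 with normalization and -1.10 without it. The part of the array signal in these differences was not tested.

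MSX came with higher BCAT4 in nitrate-treated pericycle cells. The level was 9.19, 9.06 and 9.45 with nitrate and MSX, all above the 8.26, 8.08 and 7.53 of continuous nitrate alone, a difference of 1.28 (SE 0.48, 2.42-fold). On deposited values the difference was 0.61 and the groups overlapped. Adding glutamine to nitrate and MSX gave 9.21, 10.16 and 10.09, which overlapped nitrate with MSX and differed from it by 0.59 (SE 0.48). In KCl with MSX the arrays ranged widely, at 9.41, 10.46 and 8.37, around those of KCl alone, and the difference of -0.30 was smaller than its SE of 0.48. After normalization BCAT4 lay above 9 on every array of the nitrate groups that held MSX, and below 9 on 5 of the 6 that did not, a split that was not present on deposited values.

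In LRC, 1 array carried most of the spread: BCAT4 was 8.32, 6.56 and 6.16 in continuous nitrate, against 6.46, 6.40 and 6.21 in KCl. EndoP cells in transitory nitrate had 9.28, 9.03 and 7.85, against 7.79, 7.89 and 8.04 in KCl, a difference of 0.81 (SE 0.48). Without the array that stands apart, which is the one at 9.28, that difference was 0.53 (SE 0.53). EndoP cells in continuous nitrate, at 7.52, 8.10 and 7.72, overlapped KCl. Stele stayed between 5.70 and 6.95 on its 9 arrays.

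In protoplasts and whole roots, BCAT4 was lower after wall digestion. Protoplasts had 5.80, 5.90 and 5.83 in continuous nitrate, 6.74, 5.48 and 5.99 in transitory nitrate and 6.37, 5.48 and 7.86 in KCl. Incubated roots had 7.22, 6.42 and 8.34 in continuous nitrate, 8.46, 8.91 and 8.29 in transitory nitrate and 6.36, 7.58 and 8.16 in KCl. Protoplasts lay wholly below incubated roots in both nitrate treatments and overlapped them in KCl. In transitory nitrate these groups fall in different runs of sample numbers, so wall digestion and run cannot be told apart there. Within incubated roots, transitory nitrate exceeded KCl by 1.19 (SE 0.53) with no overlap, and by 0.74 with overlap under quantile normalization. Without the arrays that stand apart it was 0.39 (SE 0.59), where 1 KCl array was left and the spread was taken from the other groups. The GAPDH 3' minus 5' control signal, a measure of RNA integrity, was 0.41 to 1.05 in transitory nitrate and 2.49 to 3.66 in KCl. Its part was not tested. The mean difference between protoplasts and incubated roots over the 3 treatments, transitory nitrate included, was -1.59 (SE 0.30, 0.333-fold). It was -2.19 (SE 0.31) without the 5 one-cycle arrays that stand apart.

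Frozen roots showed no separation of nitrate and KCl for BCAT4. At 3.5 h the arrays had 8.01, 8.75 and 8.15 in nitrate, against 7.83, 8.36 and 8.26 in KCl (difference 0.15, SE 0.53). At 2 h they had 8.12, 8.52 and 7.74 in nitrate, against 6.30, 7.92 and 7.68 in KCl. The KCl array at 6.30 is the one that stands apart, and leaving it out took the 2 h difference to 0.33, where it was 0.83 (SE 0.53) with it.

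MSRB5 was also highest in pericycle cells in KCl, and its largest contrast with treatment came with glutamine. In KCl it had 9.81, 9.63 and 10.08 in Peri, 8.54, 9.02 and 8.83 in EpiC and 8.21, 8.06 and 8.13 in EndoP. LRC had 7.18, 7.70 and 8.00, and Stele had 7.73, 7.23 and 6.95. The order Peri, EpiC, EndoP and LRC held without overlap between neighbours, and LRC and Stele overlapped. On deposited values EndoP (8.52, 8.58 and 8.53) overlapped EpiC (8.23, 8.72 and 8.54), and their order turned. Peri exceeded the mean of the other 4 populations by 1.88 (SE 0.48, 3.68-fold). Of the others, EpiC differed by 0.57, LRC by -0.89 and Stele by -1.30, and the EndoP difference of -0.26 became 0.28 on deposited values.

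The 3 arrays of Peri cells given nitrate, MSX and glutamine had MSRB5 at 11.16, 11.39 and 11.26, the highest level of this gene on any sorted array. Nitrate with MSX gave 8.46, 7.42 and 10.21, continuous nitrate gave 8.13, 9.23 and 6.58, and KCl with MSX gave 8.20, 9.05 and 9.13. The glutamine group lay above all arrays of each of these groups. It exceeded nitrate with MSX by 2.58 (SE 0.61, 5.97-fold), KCl with MSX by 2.48 (5.57-fold) and continuous nitrate by 3.29 (9.80-fold). On deposited values the first of these differences was 2.44. It ranged between 1.94 and 3.33 with any 1 of its 6 arrays left out. The glutamine arrays also differed in a measure of RNA integrity, the GAPDH 3' minus 5' control signal, which was 3.97 to 5.33, against 3.16 to 3.84 with nitrate and MSX. Its part in the difference was not tested. The glutamine arrays are also the only sorted ones in the later run of sample numbers, so glutamine and run cannot be told apart.

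KCl with MSX had lower MSRB5 than KCl in Peri cells, without overlap, and the difference was -1.05 (SE 0.61). GAPDH 3' minus 5' was 4.05 to 4.40 on these arrays, against 2.56 to 3.13 in KCl, and its part was not tested. Nitrate with MSX overlapped continuous nitrate, with a difference of 0.72 (SE 0.61) that was 0.02 without replicate 3 of continuous nitrate.

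For MSRB5, nitrate and KCl differed in opposite directions in EpiC and Peri cells. EpiC cells had 9.58, 10.30 and 9.94 in continuous nitrate and 8.96, 10.06 and 9.92 in transitory nitrate, against 8.54, 9.02 and 8.83 in KCl. The continuous-nitrate arrays all lay above KCl (difference 1.14, SE 0.61), and 1 transitory array fell among the KCl arrays (difference 0.85). GAPDH 3' minus 5' was 2.58 to 3.49 on the continuous-nitrate arrays of EpiC and 3.50 to 4.12 on its KCl arrays, and its part was not tested. Stele cells had 8.06, 9.29 and 7.97 in transitory nitrate, all above the 7.73, 7.23 and 6.95 of KCl (difference 1.14, SE 0.61), and the 8.17, 7.88 and 7.52 of continuous nitrate overlapped both groups. On deposited values the transitory arrays (8.25, 9.0 and 7.69) overlapped KCl, and the difference was 0.75. It was 0.71 on normalized values without the array at 9.29.

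In Peri cells MSRB5 was 8.13, 9.23 and 6.58 in continuous nitrate, against 9.81, 9.63 and 10.08 in KCl (difference -1.86, SE 0.61), and the difference was -1.16 without replicate 3. As deposited, the same arrays read 9.01, 10.15 and 6.69, against 9.64, 9.37 and 9.93 in KCl, and overlapped, with a difference of -1.03, or of -0.066 without replicate 3. The difference between the EpiC and Peri responses was not tested. Transitory nitrate in Peri spread over 7.45, 9.61 and 10.90. Replicate 3 of continuous nitrate was the lowest of its group for all 4 genes. LRC and EndoP overlapped between nitrate and KCl: LRC ranged over 6.70 to 8.14 in nitrate and 7.18 to 8.00 in KCl, and EndoP over 7.22 to 9.19 in nitrate and 8.06 to 8.21 in KCl.

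**Figure D2:**
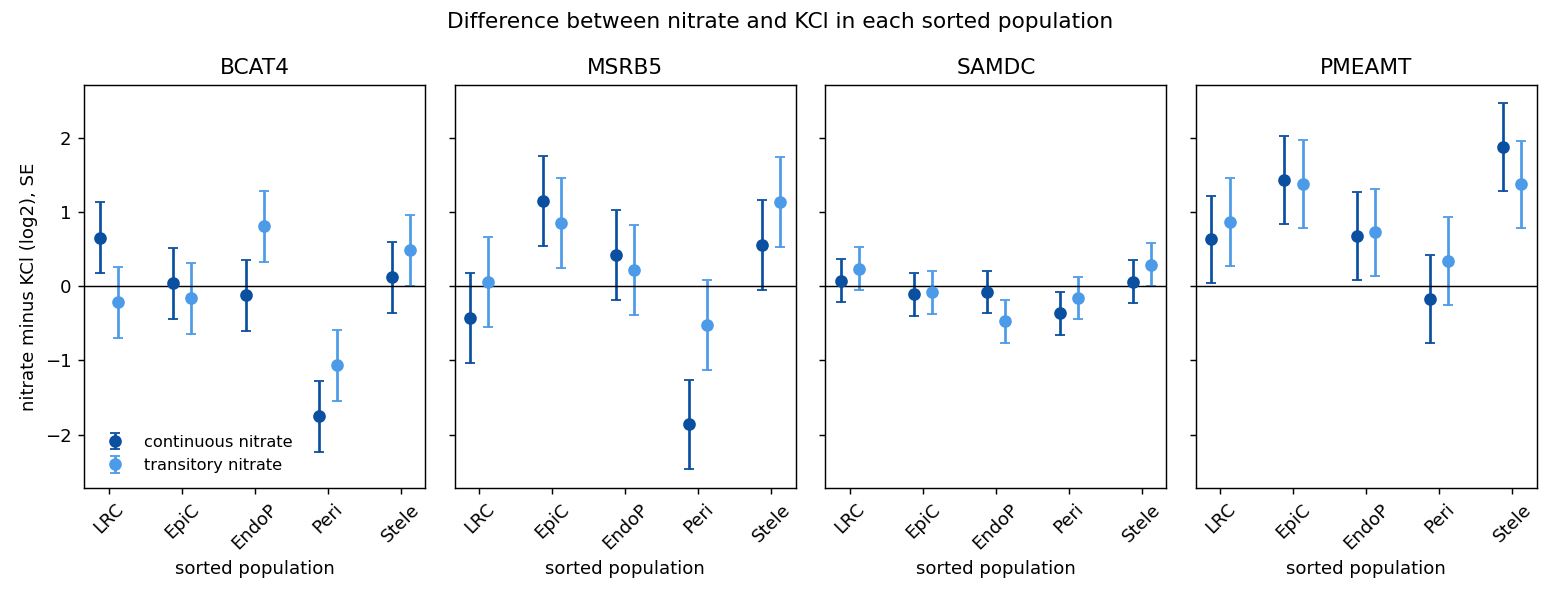
Difference between nitrate and KCl (log2, vertical axis) of the 4 genes in each sorted population (horizontal axis), for continuous nitrate (dark) and transitory nitrate (light); bars are limma standard errors. PMEAMT lies above 0 in LRC, EpiC, EndoP and Stele, and BCAT4 is below 0 in Peri, at -1.75 and -1.07.

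In roots, MSRB5 was highest in incubated roots in transitory nitrate, at 8.04, 8.46 and 8.08. Continuous nitrate had 7.0, 5.92 and 7.52, and KCl had 6.01, 6.44 and 7.44. Transitory nitrate exceeded KCl by 1.56 (SE 0.37) with no overlap, and by 0.75 (SE 0.34) without the arrays that stand apart, where 1 KCl array was left and the spread was taken from the other groups. That comparison also separated in GAPDH 3' minus 5', at 0.41 to 1.05 in transitory nitrate and 2.49 to 3.66 in KCl, and its part was not tested. Protoplasts ranged over 6.04 to 7.31 in the 3 treatments. In transitory nitrate, where wall digestion and run of sample numbers cannot be told apart, they differed from incubated roots by -1.59, with no overlap. They differed by -0.34 in continuous nitrate and by 0.15 in KCl (SE 0.37 for each of the 3). Without the arrays that stand apart the last pair of differences was -1.04 and -0.66 (SE 0.34 each), so the direction in KCl turned. The mean of the 3 was -0.59 (SE 0.21), and -1.10 (SE 0.18) without those arrays.

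MSRB5 was higher in roots frozen at 3.5 h than at 2 h. The groups of these times also fall in different runs of sample numbers, so time and run cannot be told apart. In nitrate it had 7.98, 8.26 and 7.77 at 3.5 h, against 7.29, 7.68 and 7.29 at 2 h, without overlap (difference 0.58, SE 0.37). In KCl it had 7.70, 8.13 and 7.83 at 3.5 h, against 6.11, 7.27 and 7.04 at 2 h, again without overlap (difference 1.08, SE 0.37). The difference in KCl was 0.73 (SE 0.27) without the array at 6.11, which stands apart. At 2 h nitrate lay above KCl by 0.61 (SE 0.37), and by 0.27 (SE 0.27) without that array, and the groups overlapped with quantile normalization.

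SAMDC was among the strongest signals on every sorted array, at or above the 98.7th percentile. In KCl it had 12.65, 12.60 and 13.12 in Peri, 12.52, 12.63 and 12.67 in EndoP, 12.29, 12.27 and 12.37 in EpiC, 11.71, 12.00 and 11.36 in Stele and 11.01, 11.08 and 11.69 in LRC. Peri and EndoP overlapped, as did Stele and LRC, and EndoP lay above EpiC and EpiC above Stele on all arrays. On deposited values EndoP (12.37, 12.43 and 12.40) overlapped EpiC (12.19, 12.35 and 12.54). Peri exceeded the mean of the other populations by 0.82 (SE 0.23, 1.77-fold), and LRC was lower than the mean of its others, with a difference of -1.09 (0.471-fold). The means of the 5 populations spanned less than those of the other 3 genes.

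Nitrate left SAMDC within 0.47 log2 units of KCl in every population and form of treatment. The largest of these differences, -0.47 in EndoP with transitory nitrate, came from 11.17, 12.50 and 12.73, against 12.52, 12.63 and 12.67 in KCl, and was 0.01 without the array that stands apart. Averaged over populations, nitrate differed from KCl by -0.06 (SE 0.11). In Peri cells SAMDC was 11.93, 11.96 and 12.20 with nitrate, MSX and glutamine, below the 12.35, 12.40 and 12.33 of nitrate with MSX (difference -0.33, SE 0.29). KCl with MSX, at 12.23, 12.31 and 12.36, lay below KCl (difference -0.49, SE 0.29). Both gaps came without overlap. The first is close to its standard error in size and the second is larger than it. GAPDH 3' minus 5' separated as well, at 3.97 to 5.33 with glutamine, against 3.16 to 3.84 with nitrate and MSX. It was 4.05 to 4.40 in KCl with MSX, against 2.56 to 3.13 in KCl, and its part was not tested.

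In roots and protoplasts, SAMDC spread most in the groups that hold arrays that stand apart, with SDs of 1.32 to 2.22. No protoplast array stands apart, and protoplasts still ranged over 8.87 to 10.56, with an SD of 0.83 in transitory nitrate. SAMDC was 8.75, 6.30 and 9.74 in incubated roots in continuous nitrate, 10.30, 10.69 and 10.44 in transitory nitrate and 6.55, 7.72 and 9.18 in KCl. Roots at 2 h had 9.34, 10.53 and 10.78 in nitrate, against 7.04, 10.53 and 11.17 in KCl. The values of 6.30, 6.55, 7.04, 7.72 and 8.75 are all from the arrays that stand apart. Protoplasts exceeded incubated roots by 0.87 (SE 0.53) with them and differed by -0.08 (SE 0.33) without them. Transitory nitrate exceeded KCl in incubated roots by 2.66 (SE 0.92) with them and by 1.30 without, where 1 KCl array was left. GAPDH 3' minus 5' separated in that contrast, at 0.41 to 1.05 in transitory nitrate and 2.49 to 3.66 in KCl, and its part was not tested. The 2 h difference between nitrate and KCl was 0.64 (SE 0.92) with the array at 7.04 and turned to -0.63 (SE 0.49) without it. At 3.5 h SAMDC had 10.14, 10.92 and 10.47 in nitrate, against 9.60, 10.21 and 10.21 in KCl.

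**Figure D3:**
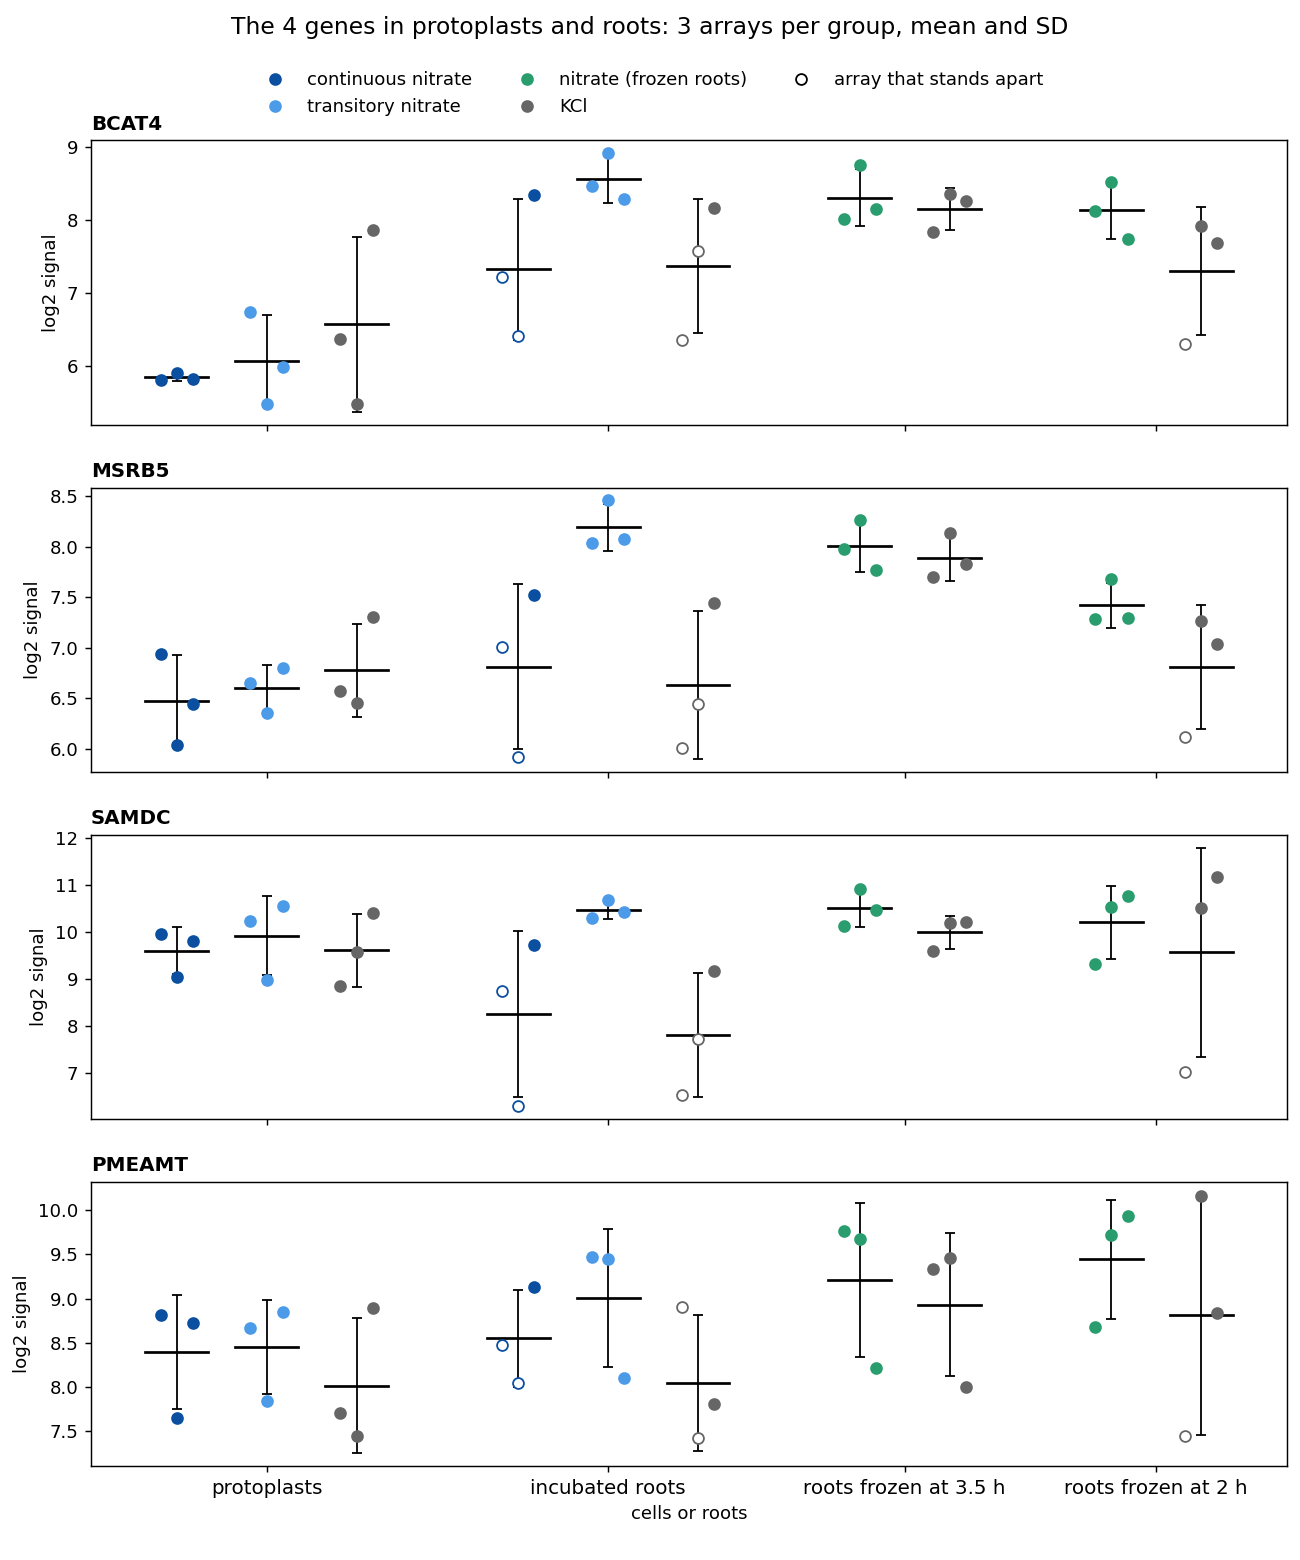
Log2 signal of the 4 genes on the 30 arrays of protoplasts and roots, in 4 panels, with sample type on the horizontal axis and treatment by colour; bars give the mean and SD of 3 arrays and hollow points are the 5 arrays that stand apart. The hollow points hold the lowest SAMDC levels, at 6.30 to 8.75, and BCAT4 is lower in protoplasts than in incubated roots in both nitrate treatments.

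PMEAMT divided the populations in KCl into a high and a low group. Its mean over both nitrate groups was above KCl in all 5 populations, though by only 0.08 in Peri. In KCl it had 12.19, 11.47 and 10.75 in EndoP and 12.15, 10.99 and 10.68 in Peri. Stele had 8.99, 9.66 and 9.83, EpiC had 8.81, 8.72 and 8.96, and LRC had 8.24, 8.54 and 8.27. EndoP and Peri overlapped, and each lay above all arrays of the other 3 populations. EndoP exceeded the mean of the others by 1.98 (SE 0.47, 3.96-fold) and Peri by 1.74 (3.34-fold). LRC was the lowest, below all 12 other arrays, with a difference of -1.92 (0.265-fold).

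Nitrate-treated cells had more PMEAMT transcript than KCl-treated cells in LRC, EpiC and Stele. Stele cells had 10.97, 11.42 and 11.72 in continuous nitrate and 11.11, 10.39 and 11.10 in transitory nitrate, against 8.99, 9.66 and 9.83 in KCl. EpiC cells had 10.03, 10.09 and 10.67 in continuous nitrate and 9.84, 10.44 and 10.35 in transitory nitrate, against 8.81, 8.72 and 8.96 in KCl. LRC cells had 8.55, 9.18 and 9.21 in continuous nitrate and 8.76, 9.04 and 9.85 in transitory nitrate, against 8.24, 8.54 and 8.27 in KCl. In each of the 3 populations all 6 nitrate arrays lay above all 3 KCl arrays, in LRC by a narrow margin (8.55 against 8.54). The differences were 1.62 in Stele (3.08-fold), 1.41 in EpiC (2.65-fold) and 0.75 in LRC (1.68-fold), with an SE of 0.51 each. On deposited values 1 of the 6 Stele nitrate arrays, at 10.35, fell among the KCl arrays, and the Stele difference was 1.30.

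Where PMEAMT was already high in KCl, the nitrate arrays overlapped the KCl arrays. Its probe set stood at the 97.9th to 99.8th percentile of the array in EndoP and Peri cells in KCl, near the top of the scale. The part of this in the overlap was not tested. EndoP cells had 12.44, 12.09 and 11.91 in continuous nitrate and 11.54, 12.57 and 12.47 in transitory nitrate, against 12.19, 11.47 and 10.75 in KCl. The difference was 0.70 (SE 0.51), and 0.86 (SE 0.53) without the array at 11.54, which stands apart. Peri cells had 12.63, 11.84 and 8.84 in continuous nitrate and 11.31, 12.24 and 11.30 in transitory nitrate, against 12.15, 10.99 and 10.68 in KCl. The Peri difference of 0.08 (SE 0.51) depended on the array at 8.84, and was 0.65 (SE 0.43) without it. The EndoP difference of 0.70 was close to the 0.75 of LRC. The SD of the KCl arrays was 0.72 in EndoP and 0.17 in LRC, so overlap does not by itself mark a smaller nitrate difference. Whether the nitrate difference itself differs between populations was not tested. Averaged over the 5 populations, nitrate exceeded KCl by 0.91 (SE 0.23, 1.88-fold), and by 0.93 on deposited values.

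In Peri cells treated with MSX, PMEAMT was 12.07, 12.44 and 11.44 with nitrate, against 11.47, 11.79 and 9.24 with KCl, and the groups overlapped (difference 1.15, SE 0.59). Adding glutamine to nitrate and MSX gave 9.82, 11.82 and 10.94, a difference of -1.12 (SE 0.59), with overlap, which was -0.61 without the array at 9.82. Nitrate with MSX exceeded continuous nitrate by 0.88 (SE 0.59), and differed from it by -0.25 (SE 0.54) when the array at 8.84 was left out. The SD of PMEAMT was 2.00 in continuous nitrate and 1.39 in KCl with MSX, and the difference between nitrate with MSX and KCl with MSX was 0.35 without the array at 9.24.

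PMEAMT overlapped in all comparisons of roots and protoplasts on deposited values. With quantile normalization, protoplasts lay below incubated roots in continuous nitrate without overlap, with a difference of -0.86, where it was -0.15 as deposited. The mean difference between protoplasts and incubated roots was -0.77 with quantile normalization and -0.25 as deposited, with overlap on both scales. Incubated roots had 8.47, 8.04 and 9.13 in continuous nitrate, 9.47, 9.45 and 8.10 in transitory nitrate and 8.90, 7.42 and 7.81 in KCl. Protoplasts ranged over 7.65 to 8.85 in nitrate and 7.45 to 8.89 in KCl. Roots at 2 h had 8.68, 9.72 and 9.94 in nitrate, against 7.45, 10.17 and 8.83 in KCl. The 2 h difference of 0.63 (SE 0.64) was -0.05 (SE 0.62) without the array at 7.45, which stands apart. At 3.5 h it was 0.28 (SE 0.64).

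Other genes of methionine and SAM metabolism were read from a list of 92, of which 17 had a probe set that could be named, and all 17 passed the filter on low values. None of the nameable genes makes SAM itself or ethylene. They hold 4 sulfoxide reductases, 3 genes of methionine synthesis, 3 of phosphocholine synthesis, 2 aminotransferases, 2 SAM decarboxylases and 1 gene each of glucosinolate synthesis, methionine breakdown and the methylthioadenosine cycle. The list was drawn up with results of these data known. Calls are limma's, at an adjusted p under 0.05 over all probe sets tested.

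In pericycle cells in KCl, where BCAT4 and MSRB5 were highest, 3 of the 17 were higher than in the other populations and none was lower, while 4.03% of all probe sets tested were called in either direction. UGT74C1, a glucosyltransferase of aliphatic glucosinolate synthesis, averaged 8.07 in Peri, against 6.85 in the other populations, a difference of 1.22 (SE 0.24, limma adjusted p = 0.00105), with all 3 Peri arrays above all 12 others. NMT3, like PMEAMT a methyltransferase of phosphocholine synthesis, averaged 7.94 against 6.10 (difference 1.84, limma adjusted p = 0.00397). SAMDC3, another SAM decarboxylase, averaged 7.69 against 6.59 (difference 1.10, limma adjusted p = 0.00984). The calls of NMT3 and SAMDC3 were lost when Peri in KCl replicate 1 was left out, with adjusted p-values of 0.24 and 0.158, and that of UGT74C1 was kept with any 1 array left out. The median difference of the 17 was 0.35, beside 0.00 over all probe sets.

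Stele cells, lowest for BCAT4 and MSRB5, had 5 of 17 called, where 20.6% of all probe sets were. MGL, which breaks methionine down, was higher by 2.37 (SE 0.56, limma adjusted p = 0.00454), with 9.01 in Stele and 6.64 in the others. UGT74C1 was lower, with a difference of -1.20 (limma adjusted p = 0.00145), with 6.13 in Stele and 7.33 in the others. ARD4, of the methylthioadenosine cycle, was lower, with a difference of -1.09, SAMDC3 with -0.88 and BCAT5, a branched-chain aminotransferase, with -0.64, with limma adjusted p-values of 0.0407, 0.0193 and 0.0483. Of these 5 calls, only that of UGT74C1 was kept with each array left out in turn. The call of MGL was lost without Stele in KCl replicate 3 (adjusted p = 0.0948), and the count ranged between 1 and 5.

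LRC cells had 3 of 17 called, beside 23.6% of all probe sets. HMT1, a homocysteine methyltransferase that makes methionine, averaged 10.57 in LRC, against 7.74 in the others, and was higher by 2.84 (SE 0.39, limma adjusted p = 7.06e-07), a call kept with any array left out. CBL, the cystathionine beta-lyase of methionine synthesis, and MGL were lower, with a difference of -1.34 and -1.62 (limma adjusted p = 0.0255 and 0.0306). Both were lost without LRC in KCl replicate 1, with adjusted p-values of 0.321 for CBL and 0.155 for MGL, and MGL also without replicate 2. In EndoP cells 1 of 17 was called, with 16.4% of all probe sets called. This was MSRA5, a sulfoxide reductase of type A, which averaged 8.97 against 7.89 (difference 1.08, limma adjusted p = 0.0456), and it was kept in 4 of 15 fits with 1 array left out. EpiC cells had none by limma, where 4.25% of all probe sets were called and 8 of the 17 had an unadjusted p under 0.05.

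**Figure D4:**
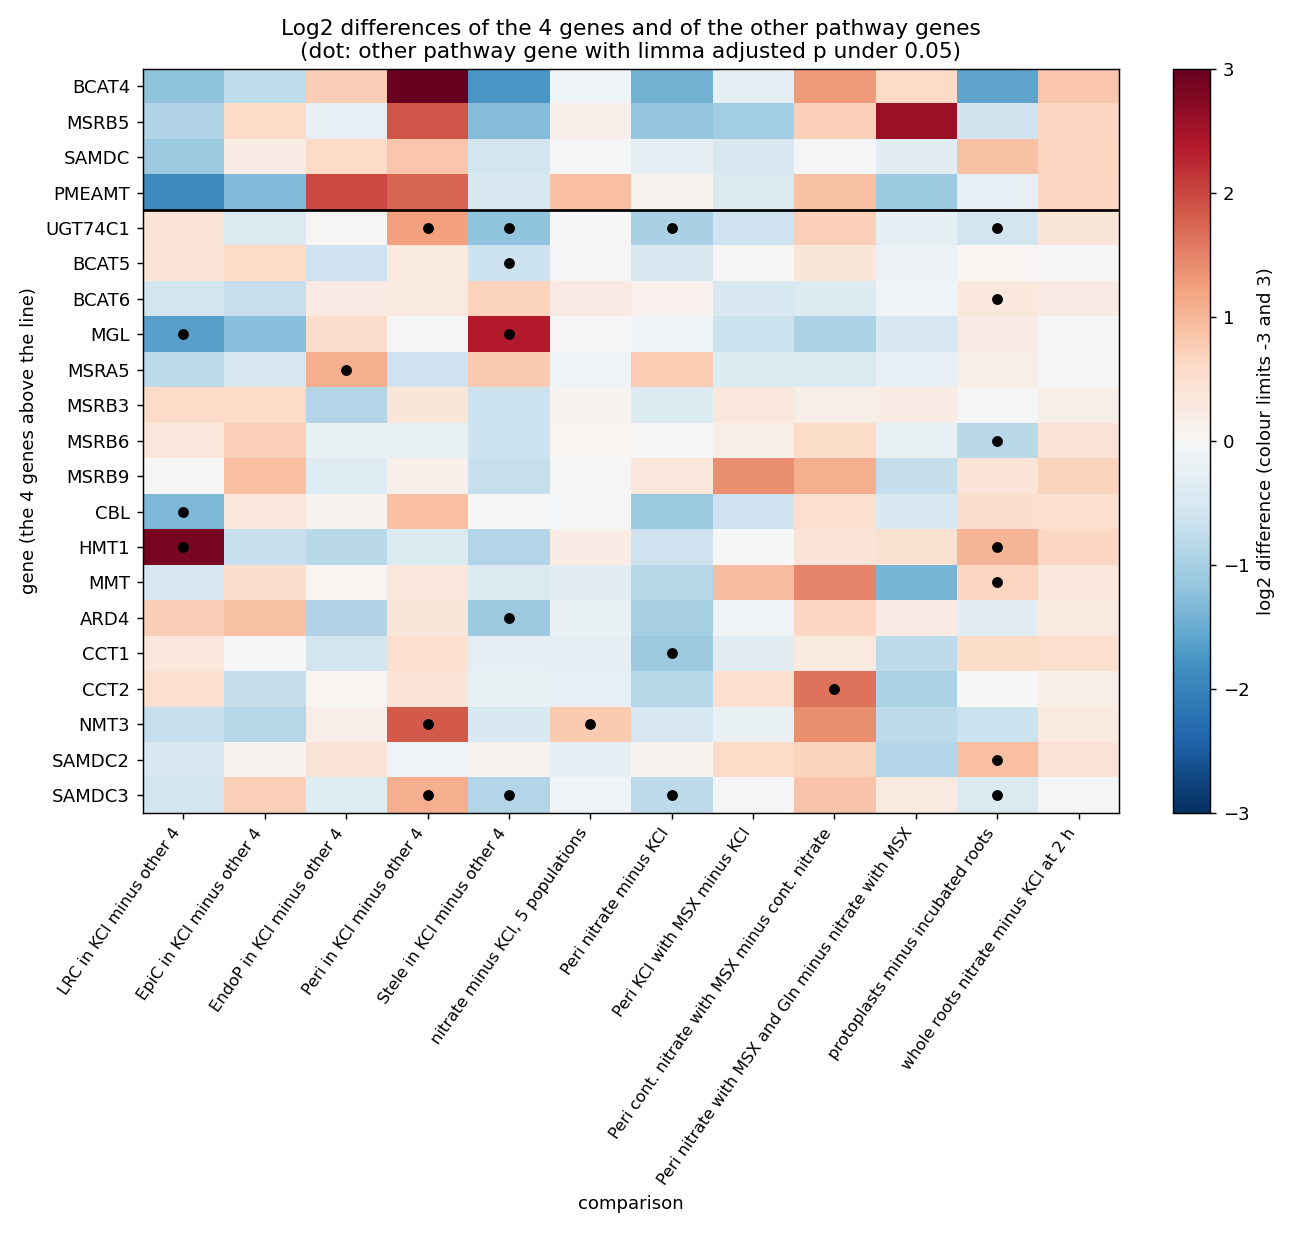
Log2 difference (colour) of the 4 genes, above the line, and of the 17 other pathway genes in 12 comparisons, in columns; dots mark pathway genes with a limma adjusted p under 0.05, which was not computed for the 4 genes. HMT1 in LRC, MGL in Stele and MSRB5 in Peri cells given glutamine are among the strongest colours.

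Nitrate averaged over the 5 populations moved 1 of the 17, beside 0.722% of all probe sets. NMT3 was higher by 0.79 (SE 0.20, limma adjusted p = 0.0428), averaging 7.26 in nitrate and 6.47 in KCl, in the same comparison in which PMEAMT differed by 0.91. In EpiC cells NMT3 averaged 7.39 in continuous and 6.99 in transitory nitrate, against 5.78 in KCl, and in Stele cells 8.36 and 7.32, against 6.10 in KCl, with no overlap between nitrate and KCl arrays in either population. In Peri cells it averaged 7.17 and 7.70, against 7.94 in KCl. The call over populations stood close to the threshold: it was kept in 14 of 45 fits with 1 array left out, where the adjusted p ranged between 0.00548 and 0.142.

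In Peri cells, nitrate against KCl gave 3 of 17 called, all lower, where 23.4% of all probe sets were called. UGT74C1 averaged 7.10 in nitrate and 8.07 in KCl (difference -0.97, limma adjusted p = 0.0189), with all 6 nitrate arrays below all 3 KCl arrays, in the comparison in which BCAT4 was lower, with a difference of -1.41. CCT1, which activates phosphocholine for lipid synthesis, was lower, with a difference of -1.09 and SAMDC3, with -0.80 (limma adjusted p = 0.0276 and 0.0453). No call of the 3 was kept on deposited values, on which 97.8% of all called probe sets were higher in nitrate, beside 53.6% after normalization. With the compared arrays alone in the fit, none of the 17 was called. The 3 calls also depended on single arrays: without Peri in KCl replicate 1, all were lost.

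MSX and glutamine moved few of the 17. Nitrate with MSX against continuous nitrate had 1 called, beside 9.17% of all probe sets: CCT2, an enzyme of the same step as CCT1, averaged 8.37 with MSX and 6.74 without (difference 1.63, SE 0.47, limma adjusted p = 0.0232), with no overlap. It was kept in 2 of 6 fits with 1 array left out. KCl with MSX against KCl had none by limma, where 0.0675% of all probe sets were called and 2 of the 17 had an unadjusted p under 0.05. Glutamine with nitrate and MSX against nitrate with MSX, the contrast in which MSRB5 differed by 2.58, had none by limma, beside 0.685% of all probe sets and 1 of 17 at an unadjusted p under 0.05. The 3 other type B reductases differed there by 0.23 (MSRB3), -0.20 (MSRB6) and -0.70 (MSRB9), none of them called.

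Between protoplasts and incubated roots, 7 of 17 were called, where 24.7% of all probe sets were. The transitory-nitrate groups in this contrast fall in different runs of sample numbers. SAMDC2 averaged 7.38 in protoplasts and 6.47 in roots (difference 0.91, limma adjusted p = 3.4e-04), with all 9 protoplast arrays above all 9 root arrays. HMT1 (1.02), MMT, a methionine S-methyltransferase (0.64), and BCAT6 (0.32) were also higher, and MSRB6 (-0.84), UGT74C1 (-0.54) and SAMDC3 (-0.44) were lower. Without the arrays that stand apart by Spearman correlation 4 were called, and HMT1, MMT, BCAT6 and SAMDC3 lost their calls, while SAMDC2, MSRB6 and UGT74C1 kept theirs. UGT74C1 lost its call under quantile normalization (adjusted p = 0.0748). In 2 h roots, nitrate against KCl called 0% of all probe sets by limma and none of the 17, and 237 of all probe sets and none of the 17 had an unadjusted p under 0.05.

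The 4 genes were also set beside all others by the shape of their profile over the 18 sorted group means, which share libraries and normalization. Among 1402 other probe sets with 1 gene and a symbol, the profiles most like BCAT4 were those of ZIP6 (Pearson r = 0.92), CYP71B37 (0.90) and CCR2 (0.89). Those most like MSRB5 were GSTU27 (0.83), HYH (0.80) and GTR1 (0.79). For SAMDC they were ATMDAR2 (0.89), ORA47 (0.87) and bHLH115 (0.86), and for PMEAMT ATL8 (0.83), TBL28 (0.82) and UGT71C5 (0.82). Between the 4 genes themselves r ran between 0.31, for MSRB5 with PMEAMT, and 0.70, for SAMDC with PMEAMT. Over the 10 group means of roots and protoplasts, which include the arrays that stand apart, the leading names were FACT for BCAT4 (0.98), PS2 for MSRB5 (0.97), ATB2 for SAMDC (0.98) and ALDH2C4 for PMEAMT (0.87).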

How the data were processed

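Log2 signals of 84 Affymetrix ATH1 arrays were taken from the deposited table. That the authors' values are on a log2 scale was read from their range (0 to 14.463), and the software and normalization behind them are not given in the sources used here. The 30 one-cycle arrays were used as deposited, and the 54 two-cycle arrays, whose medians spanned 1.039, were quantile normalized. After leaving out 64 control probe sets, those above the 40th percentile of all values of their protocol on at least 3 arrays were tested: 20236 one-cycle and 19258 two-cycle. Probe sets were named from the platform annotation (13513 with 1 gene, 503 with several, 8794 with none).

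Each protocol was fitted with limma 3.58.1 (R 4.3.3; lmFit, eBayes with trend), 1 coefficient per group, two-sided, with Benjamini-Hochberg adjustment over all probe sets tested and a threshold of 0.05. The fit was tested on simulated data. With 3 arrays against 3, an exact permutation test of a single value cannot go below 0.1. The 4 genes and the gene lists were chosen with earlier results of these data known. Besides the 4 genes, the text names pathway genes that were called, markers, and the 3 profiles most like each gene. Alternatives were the other normalization, no filter, the compared arrays alone, a replicate block, each array left out in turn and, chosen after seeing the data in its Spearman form, leaving out arrays that stand apart. Further comparisons of the 4 genes were also computed with each array left out on both scales, a choice made after seeing the data. The number of arrays limits the precision. EpiC groups were read from titles, because their source names give a single treatment. No sequences are shown, since none were used here.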

Additional observations from a re-analysis of the deposited data

Results flagged for a closer look

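MSRB5 moved in opposite directions with continuous nitrate in EpiC and Peri cells: all 3 EpiC arrays lay above KCl, by 1.14 on average, and all 3 Peri arrays lay below KCl, by -1.86 on average. The gap between these differences was 3.01 log2 units. It was picked out because every array of one population moved one way and every array of the other moved the opposite way, and the difference between the populations was not tested. Without Peri continuous nitrate replicate 3 the Peri difference was -1.16. On deposited values the Peri arrays overlapped KCl, with a difference of -1.03, or of -0.066 without that replicate.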

How the results depend on the processing

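The yardstick for the 4 genes was the pooled SD of the compared groups with all arrays in. Leaving out 1 of 3 arrays can hardly move a difference further than that, so the count for arrays left out does not show stability. Values of the 4 genes moved by less than 1 SD in 684 comparisons with an array left out and in 279 with another setting, and moved further in 9, all under the other normalization. There BCAT4 was 1.23 in EndoP in KCl, -0.70 for Peri nitrate and 0.61 for Peri nitrate with MSX against continuous nitrate. MSRB5 was 0.28 in EndoP, 0.22 in EpiC, -1.22 in LRC and -0.94 in Stele in KCl, so its EndoP direction turned. PMEAMT in Stele turned to 0.081, and SAMDC with glutamine was -0.44. In 11 of 48 differences some alternative turned the sign, mostly with 1 array left out. The turns that came with arrays left out are counted above as moves of less than 1 SD. Without 2 h roots in KCl replicate 1, SAMDC turned to -0.63 and PMEAMT to -0.05. Without Peri continuous nitrate replicate 3, PMEAMT for nitrate with MSX turned to -0.25. Without the arrays that stand apart by Spearman, SAMDC between protoplasts and incubated roots turned to -0.08. Calls among the 17 pathway genes depended more on the setting. Without the filter, 0 were called in EndoP and 0 for nitrate over populations. With the compared arrays alone, 4 were called in EndoP, 5 in EpiC, 8 in Stele, 0 for Peri nitrate and 0 for nitrate with MSX against continuous nitrate. Without the arrays that stand apart, by either correlation, 2 were called in EndoP, 2 for nitrate with MSX and 5 for Peri nitrate, and by Spearman 4 between protoplasts and incubated roots. With single arrays left out the counts ran between 0 and 2 in EndoP, 1 and 3 in Peri in KCl, 1 and 5 in Stele, 0 and 1 for nitrate over populations, 0 and 6 for Peri nitrate, and 0 and 3 for nitrate with MSX. Deviations of same-numbered replicates had a median correlation of 0.0167 in two-cycle and 0.00825 in one-cycle arrays, over pairs from all groups. In two-cycle arrays 176 of 459 such pairs lay above 0.1 and the lowest was -0.77. The median therefore cannot settle whether replicates are paired within a population. With the replicate block, 0 were called for nitrate over populations and 2 for nitrate with MSX. Other causes of these changes were not tested. Array scaling limits the Peri nitrate comparison most: called probe sets were higher in 53.6% with normalization and 97.8% without.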
